A study of Mus musculus with 6 samples.

Results

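Cholesterol synthesis genes were examined in mouse 4-cell embryos that had or had not passed through a period of blocked transcription. The genes were 8 chosen by name, Hmgcs1, Idi1, Fdft1, Sqle, Lss, Cyp51, Srebf2 and Insig1, each found by its symbol in 1 row, out of 55335 genes in each library. RNA was measured by Smart-Seq2, which amplifies full-length cDNA from polyadenylated RNA of very small samples, in 3 libraries of control embryos (Con) and 3 of embryos treated with DRB, the nucleoside analogue 5,6-dichloro-1-β-D-ribofuranosylbenzimidazole, which stops RNA polymerase II from elongating. DRB embryos entered KSOM medium with 20 µM of the drug as zygotes, 6 h after fertilization. They were washed out of it 20 h later and cultured without it for a further 26 h before collection. No strain, culture times for Con or vehicle for Con are given in the sources used here, nor is the number of embryos per library, and nothing says that libraries of a group came from separate matings, so p-values here speak to the spread among these libraries, which could be technical. Values of a group are given in the order of replicates 1 to 3.

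Cholesterol is built from acetyl-CoA through mevalonate, isoprenoid diphosphates, squalene and lanosterol, by enzymes that sit largely in the endoplasmic reticulum. Many of these enzymes are controlled together by the transcription factor that Srebf2 encodes, which is held in the endoplasmic reticulum by Insig proteins when sterols are plentiful and is cut free and moves to the nucleus when they are scarce. Insig1 is itself a target of that factor, which closes a feedback loop. In the mouse ovary the oocyte is known to depend on its cumulus cells for much of its cholesterol.

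The promoters are shown first, since many genes of this pathway are known to be read through a sterol regulatory element close to their start. RefSeq windows of 250 bases before to 50 after the start (GRCm38.p6) matched 6 of the 8 genes; Fdft1 and Sqle had no entry. The motifs searched on both strands were the sterol regulatory element TCACNCCAC, a shorter form TCACCNCA chosen after these windows had been read, the NF-Y box CCAAT and the GC box GGGCGG. A match to TCACCCCAC counts for both sterol motifs. The 4 stretches printed are those of Hmgcs1 and Insig1, whose values separated the groups, and of Srebf2 and Cyp51, which hold the shorter form. Each runs 5′ to 3′ on the gene's strand from 250 bases before the RefSeq start up to the first start annotated by RefSeq or GENCODE, with the matches to either sterol motif in capitals.
Hmgcs1, chr13:119690101-119690350, plus strand: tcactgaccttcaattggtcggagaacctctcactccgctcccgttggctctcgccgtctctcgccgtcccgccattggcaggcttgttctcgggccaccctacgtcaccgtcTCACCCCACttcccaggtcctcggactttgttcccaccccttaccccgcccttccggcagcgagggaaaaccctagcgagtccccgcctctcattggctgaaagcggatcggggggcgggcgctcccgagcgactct
Insig1, chr5:28071162-28071362, plus strand: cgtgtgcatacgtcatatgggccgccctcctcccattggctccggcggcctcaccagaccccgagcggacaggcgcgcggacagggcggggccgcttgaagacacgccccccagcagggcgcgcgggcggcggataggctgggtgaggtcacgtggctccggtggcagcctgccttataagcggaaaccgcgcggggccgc
Srebf2, chr15:82147019-82147180, plus strand: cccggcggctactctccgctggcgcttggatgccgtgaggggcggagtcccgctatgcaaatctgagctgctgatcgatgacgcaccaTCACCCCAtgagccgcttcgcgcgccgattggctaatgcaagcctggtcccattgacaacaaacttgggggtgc
Cyp51, chr5:4104747-4104947, minus strand: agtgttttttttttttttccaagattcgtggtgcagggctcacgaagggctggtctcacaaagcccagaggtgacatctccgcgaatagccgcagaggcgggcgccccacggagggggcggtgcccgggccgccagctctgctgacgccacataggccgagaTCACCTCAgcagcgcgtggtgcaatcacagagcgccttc

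Of the 6 windows, that of Hmgcs1 alone held the sterol regulatory element, TCACCCCAC, at positions -137 to -129 from the start (position -1 is the base before it), as did 1.24% of 32851 RefSeq windows of the same length. The shorter form was present in 3 of the 6 and in 4.42% of all windows. It was chosen after the 6 windows had been read, so its count in them carries no weight beside that share. The matches were TCACCCCA in Hmgcs1 and, at -162 to -155, in Srebf2, and TCACCTCA at -88 to -81 in Cyp51. Neither form was found in the windows of Insig1, Idi1 and Lss, which says only that these letters are not in those windows. The NF-Y box and the GC box were each present in 6 of 6 windows, against 37.4% and 35.7% of all windows. For Idi1 every match to either box, and for Cyp51 the NF-Y match, lay after the first start annotated by RefSeq or GENCODE. These matches describe letters and were not tested as binding sites.

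None of the 8 genes passed the test between DRB and Con. All 8 passed the filter of at least 1 FPKM (fragments per kilobase of transcript, scaled to the library's total) in at least 3 libraries, and 0 of 8 had a Benjamini-Hochberg adjusted p below 0.05 in limma's test over all genes, where 2.48% of the 11893 genes tested did. Hmgcs1 and Insig1 had an unadjusted p below 0.05, 2 of 8 against 18.1% of all tested genes. The same pair had 3 DRB libraries above all 3 Con libraries, 2 of 8, where 9.85% of tested genes had the groups apart in that direction and 23.8% in either direction. The median log2 fold change of the 8 genes was 0.54, with 5 positive and 3 negative, beside a median of -0.09 over all tested genes, of which 44% were positive. Fold changes are DRB over Con on log2(FPKM + 1), which understates the change of low genes. With 8 genes, a count of 2 is not a result about the set. Each library is bulk RNA of whole embryos, so fewer cells expressing a gene and less RNA per cell cannot be told apart.

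Hmgcs1, the cytosolic synthase that makes HMG-CoA and feeds the mevalonate pathway, lies on chromosome 13 (119690379 to 119708260, GRCm38, plus strand). Its FPKM was 39.35, 37.31 and 44.05 in the Con libraries and 93.27, 83.60 and 67.99 in the DRB libraries. Every DRB library was above every Con library, and the spread within each group was small, so the means of 40.2 ± 3.46 and 81.6 ± 12.8 FPKM (SD, n = 3) differed 2.03-fold. The log2 fold change was 0.99 ± 0.27 SE (95% interval 0.39 to 1.60), with a limma adjusted p of 0.086. Of the 8 genes it had the smallest p, and it did not pass the threshold.

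Idi1, the isomerase that readies isopentenyl diphosphate for chain building, lies on the same chromosome (8885501 to 8892451, plus strand). Its FPKM was 37.73, 12.90 and 21.38 in Con, against 32.48, 36.28 and 35.14 in DRB. The DRB libraries lay close together and Con replicate 1 was above all of them, so the groups overlapped. The log2 fold change was 0.63 ± 0.38 SE (95% interval -0.21 to 1.48, limma adjusted p 0.423), and it was 0.27 without Con replicate 2, the lowest library, and 1.01 without Con replicate 1.

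Fdft1, squalene synthase, which commits farnesyl diphosphate to sterols, lies on chromosome 14 (63145150 to 63179578, minus strand). The Con libraries had 91.22, 48.17 and 35.93 FPKM, and the DRB libraries 66.18, 50.13 and 36.82 FPKM. The Con values enclosed all 3 DRB values. The log2 fold change was -0.12 ± 0.38 SE (95% interval -0.96 to 0.71, limma adjusted p 0.907), and its sign turned without Con replicate 1 (0.25), without DRB replicate 3 (0.089) and with mitochondrial genes left out (0.009).

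Sqle, squalene epoxidase, which adds oxygen to squalene and is a rate-limiting step of the sterol part, lies on chromosome 15 (59315077 to 59331192, plus strand). The 3 Con libraries were alike at 15.74, 18.77 and 22.44 FPKM, while the DRB libraries had 57.56, 40.13 and 11.83 FPKM. DRB replicates 1 and 2 were above all Con libraries and DRB replicate 3 was below all of them. The log2 fold change was 0.66 ± 0.50 SE (95% interval -0.44 to 1.77, limma adjusted p 0.534). It was 1.31 without DRB replicate 3 and 0.21 without DRB replicate 1, neither of which passed the threshold.

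Lss, which folds squalene epoxide into lanosterol, lies on chromosome 10 (76531588 to 76557138, plus strand). It had 5.32, 4.42 and 6.39 FPKM in Con, against 5.80, 3.69 and 3.01 FPKM in DRB, and the groups overlapped. Its log2 fold change was -0.33 ± 0.41 SE (95% interval -1.23 to 0.57, limma adjusted p 0.738); it was -0.16 without DRB replicate 3 and -0.55 without DRB replicate 1. Cyp51, the cytochrome P450 that removes a methyl group from lanosterol, lies on chromosome 5 (4081145 to 4104746, minus strand) and was the lowest of the 8 genes. Its values were 1.26, 1.97 and 1.28 FPKM in Con and 3.35, 1.80 and 2.15 FPKM in DRB, with DRB replicate 2 inside the Con range. The log2 fold change was 0.44 ± 0.40 SE (95% interval -0.44 to 1.32, limma adjusted p 0.621), and it was 0.26 without DRB replicate 1.

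**Figure D1:**
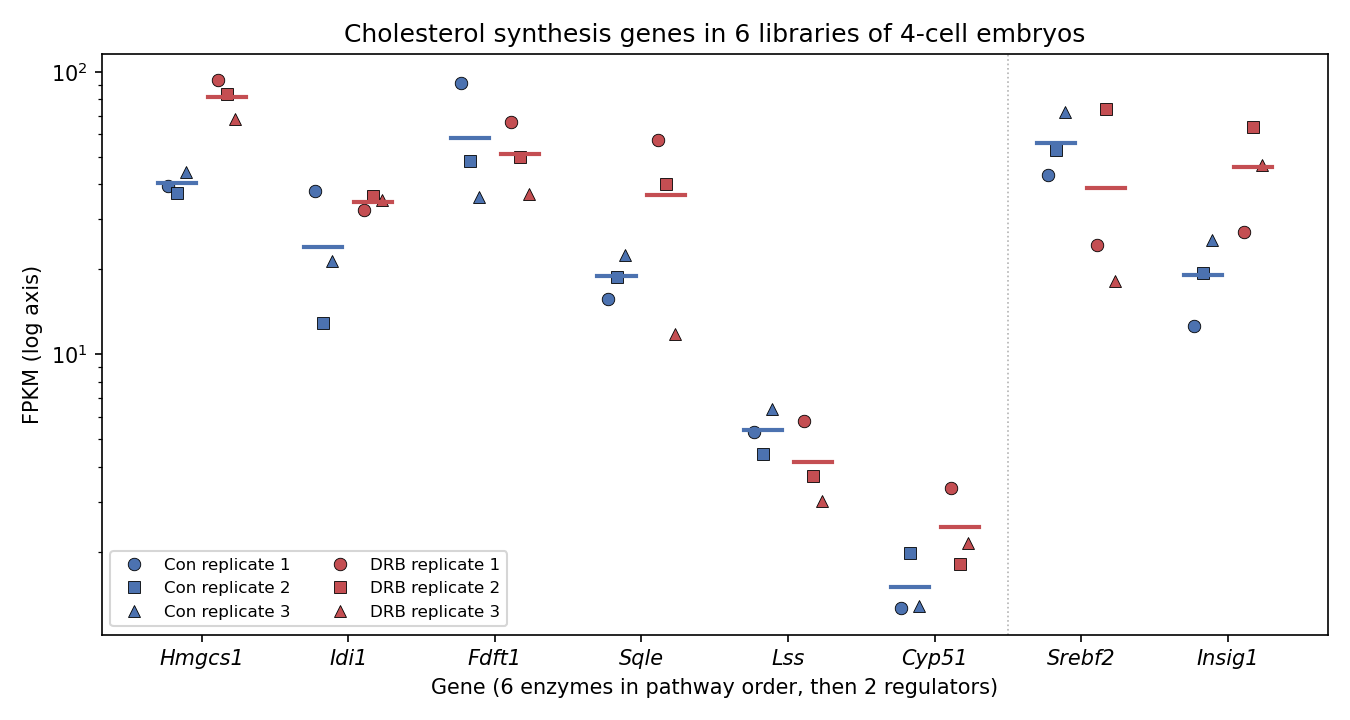
FPKM of the 8 genes in each library, on a log axis, with Con in blue and DRB in red; circles, squares and triangles are replicates 1, 2 and 3 and bars are group means (n = 3). The red points of Hmgcs1 (67.99 to 93.27) and Insig1 (27.17 to 63.62) lie above all blue points, and those of Sqle and Srebf2 fall on both sides of them.

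Srebf2, which encodes the transcription factor that turns on this pathway, lies on chromosome 15 (82147181 to 82205379, plus strand). The Con libraries had 43.04, 52.90 and 71.81 FPKM, and the DRB libraries 24.34, 73.69 and 18.21 FPKM. DRB replicate 2 was the highest of the 6 libraries, and DRB replicates 1 and 3 were below every Con library. The log2 fold change was -0.75 ± 0.47 SE (95% interval -1.78 to 0.28, limma adjusted p 0.436). It was -1.34 without DRB replicate 2 and -0.36 without DRB replicate 3, and neither passed the threshold.

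Insig1, the sterol-sensing protein that keeps that factor in the endoplasmic reticulum, lies on chromosome 5 (28071363 to 28078662, plus strand). It had 12.58, 19.38 and 25.35 FPKM in Con, against 27.17, 63.62 and 46.85 FPKM in DRB. All 3 DRB libraries were above all 3 Con libraries, with DRB replicate 1 at 27.17 FPKM close to Con replicate 3 at 25.35 FPKM. The means were 19.1 ± 6.39 and 45.9 ± 18.2 FPKM (SD, n = 3), a ratio of 2.40, and the log2 fold change was 1.19 ± 0.39 SE (95% interval 0.33 to 2.05, limma adjusted p 0.136). It was 0.92 without DRB replicate 2 and 1.52 without DRB replicate 1, the latter with a limma adjusted p of 0.0982.

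The libraries of a group did not rank the 8 genes in the same way. DRB replicate 1 had the highest DRB value of Hmgcs1, Fdft1, Sqle, Lss and Cyp51, and DRB replicate 2 that of Idi1, Srebf2 and Insig1. DRB replicate 3 had the highest DRB value of 0 of the 8 genes and the lowest of 5. In Con, replicate 3 had the highest Con value of 5 of the 8 genes and replicate 1 the lowest of 4. Such counts were not taken over all tested genes. The highest DRB value was 4.87 times the lowest for Sqle and 4.05 times for Srebf2, against 1.43 and 1.67 times in Con. The SD of their log2 values in DRB was 1.15 and 1.04, above 93.8% and 91.3% of tested genes, where the median SD over all tested genes was 0.481. Idi1 showed the opposite order of spreads, with an SD of log2 values of 0.74 in Con and 0.08 in DRB. With 3 libraries per group these spreads were not tested against each other.

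FPKM is per length, so the 8 genes were set in order of level, but the lengths used are not stated and the order depends on them. Lss has the longest annotated exon length of the 8 genes, 10787 bases over 8 transcripts. If that full length was used, its place could be too low. By Con means the order was Fdft1 (58.4 FPKM), Srebf2 (55.9 FPKM), Hmgcs1 (40.2 FPKM), Idi1 (24.0 FPKM), Insig1 (19.1 FPKM), Sqle (19.0 FPKM), Lss (5.38 FPKM) and Cyp51 (1.50 FPKM). Neighbours from Fdft1 to Sqle overlapped between their Con libraries, whereas Lss lay wholly below Sqle and Cyp51 wholly below Lss. By DRB means Hmgcs1 came first (81.6 FPKM), with its lowest library at 67.99 FPKM just above the highest of Fdft1 at 66.18 FPKM. Then came Fdft1 (51.0 FPKM), Insig1 (45.9 FPKM), Srebf2 (38.7 FPKM), Sqle (36.5 FPKM) and Idi1 (34.6 FPKM), whose neighbours overlapped. Lss (4.17 FPKM) and Cyp51 (2.43 FPKM) were last and overlapped each other. Among all tested genes, Hmgcs1 stood at the 79.7th percentile of Con means and the 88.5th of DRB means, and Cyp51 at the 13.6th and the 23.9th. Summed over the 8 genes, the Con libraries had 246, 196 and 229 FPKM and the DRB libraries 310.1, 353 and 222 FPKM, so the groups overlapped.

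The rest of the pathway was read from lists of its other genes. Of 20 enzymes listed between acetyl-CoA and cholesterol, 15 were tested and 0 passed limma's adjusted threshold in either direction, with 7 positive and 8 negative log2 fold changes and a median of -0.12. At an unadjusted p below 0.05, 1 was higher (7.53% of all tested genes) and 3 were lower (10.5% of all tested genes). The 3 were Fdps, Msmo1 and Acat2, none of them among the 8 genes. Fdps, farnesyl diphosphate synthase, had 74.42, 53.67 and 37.93 FPKM in Con, against 33.56, 18.82 and 23.31 FPKM in DRB. These did not overlap (log2 fold change -1.09 ± 0.35 SE, limma adjusted p 0.129). Msmo1, which takes methyl groups off sterols after Cyp51, had 59.58, 44.15 and 46.05 FPKM in Con, against 29.40, 27.29 and 11.20 FPKM in DRB, again with no overlap (log2 fold change -1.21 ± 0.39 SE, limma adjusted p 0.128). Acat2, which makes acetoacetyl-CoA, had a log2 fold change of -0.87 (limma adjusted p 0.268). Idi1 and Fdps, which act in succession, had log2 fold changes of opposite sign, as did Cyp51 and Msmo1. The intervals of Idi1 and Cyp51 hold 0 and their groups overlapped, so their signs are uncertain. With 44% of all tested genes positive, opposite signs are common in any pair.

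Lbr, a sterol reductase that also anchors heterochromatin to the nuclear envelope, was the most abundant of the listed enzyme genes besides the 8, with means of 145 ± 22.1 FPKM in Con against 111 ± 30.4 FPKM in DRB (SD, n = 3; limma adjusted p 0.495). Mvd, Mvk, Idi2, Tm7sf2 and Nsdhl were too low to be tested, and Idi2, the paralogue of Idi1, was listed at 0 in all 6 libraries.

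**Figure D2:**
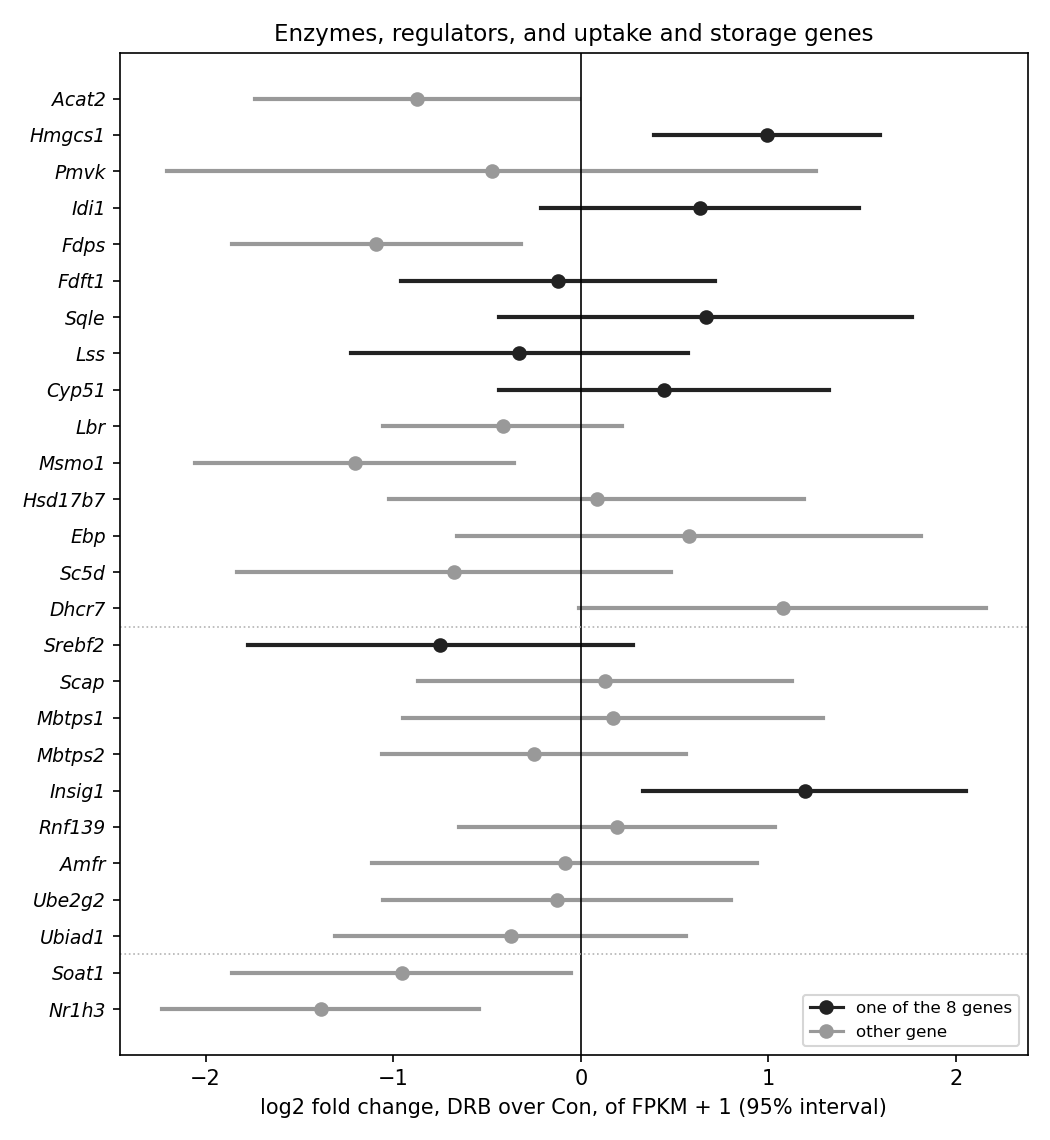
Log2 fold change, DRB over Con, with 95% limma intervals, for the 15 tested enzymes in pathway order, the 9 tested regulators, and the 2 genes of uptake, storage and efflux control with an unadjusted p below 0.05; the 8 genes are in black. The intervals of Hmgcs1 and Insig1 lie above 0, and those of Acat2, Fdps, Msmo1, Soat1 and Nr1h3 lie below it, while 0 of the 26 genes passed the adjusted threshold.

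Among 12 genes of sterol-regulated transcription, 9 were tested and 0 passed (2.48% of all tested genes). Insig1 was the only gene at an unadjusted p below 0.05 (18.1% of all tested genes). Scap, the escort of the factor, and Mbtps1 and Mbtps2, the proteases that release it, differed by 0.13, 0.17 and -0.25 on the log2 scale, with limma adjusted p-values of 0.917, 0.902 and 0.788. Mbtps2 was the most abundant of the regulators besides Srebf2 and Insig1, with 25.0 ± 5.57 FPKM in Con against 21.5 ± 8.55 FPKM in DRB (SD, n = 3). Srebf1, the relative of Srebf2 that favours fatty acid genes, was too low to be tested, with 0.79 FPKM in its highest library.

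Of 23 genes of cholesterol uptake, transport, storage and efflux, 12 were tested and 0 passed (2.48% of all tested genes). At an unadjusted p below 0.05, 2 were lower (10.5% of all tested genes). Nr1h3, a nuclear receptor for oxysterols, had 8.29, 6.97 and 6.81 FPKM in Con, against 2.09, 2.51 and 1.98 FPKM in DRB. It differed by -1.39 ± 0.39 SE on the log2 scale (limma adjusted p 0.089). Soat1, which esterifies cholesterol for storage, had a log2 fold change of -0.96 (limma adjusted p 0.251). In both genes the DRB libraries were below the Con libraries. Of the 12 tested genes, 4 had the groups apart in that direction and 2, Mylip and Npc1, in the direction of Hmgcs1 and Insig1, beside 13.9% and 9.85% of all tested genes. Mylip, which marks lipoprotein receptors for breakdown, and Npc1, which exports cholesterol from lysosomes, differed by 0.96 and 0.63 on the log2 scale, neither past the threshold (limma adjusted p-values 0.288 and 0.47). Npc2, a lysosomal cholesterol carrier and the most abundant of the list, had a log2 fold change of -0.52 (limma adjusted p 0.32).

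The branches that leave the pathway gave no call, where 2.48% of all tested genes were called. With so few genes, that is not a result about the branches. Of 11 genes of prenylation, ubiquinone and dolichol synthesis, 10 were tested and 0 passed, with 0 at an unadjusted p below 0.05 (18.1% of all tested genes). Fnta, the most abundant, had a log2 fold change of -0.44 (limma adjusted p 0.583). Of 12 fatty acid genes that respond to the same family of factors, 7 were tested and 0 passed, also with 0 at an unadjusted p below 0.05. Elovl6, a fatty acid elongase and the most abundant of them, had a log2 fold change of -0.62 (limma adjusted p 0.348), and Scd1, a stearoyl-CoA desaturase, had means of 14.5 ± 6.09 FPKM in Con against 19.2 ± 5.69 FPKM in DRB (SD, n = 3; limma adjusted p 0.633). Over all 70 listed genes other than the 8, 45 were tested and 0 passed. At an unadjusted p below 0.05, 0 were higher and 5 lower, beside 7.53% and 10.5% of all tested genes.

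The 8 genes were each standardized over the 6 libraries and averaged. The genes whose pattern was most like that mean were Zfp869, Nol8, Timeless, Cdc42se1 and Pip5k1b. Their Pearson's r with that mean was 0.99, 0.99, 0.98, 0.98 and 0.97, over 6 libraries and among 5853 genes compared, as a description of these libraries. The mean was -0.142, -0.468 and -0.181 in Con and 0.658, 0.481 and -0.348 in DRB, with DRB replicates 1 and 2 high and DRB replicate 3 near Con. Timeless, for example, had 18.07, 14.41 and 17.10 FPKM in Con, against 36.28, 26.07 and 16.02 FPKM in DRB. Several of the 8 genes did not follow the mean. DRB replicate 3 was above every Con library for Hmgcs1 and Insig1, and DRB replicate 1 was below every Con library for Srebf2.

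The libraries themselves were of like depth, put at 21500000 to 24400000 fragments by an approximate estimate, fitted to steps in the low FPKM values. If the full annotated exon length was used, Cyp51 rests on about 117 to 320 fragments per library and the other 7 genes on 781 to 11542. DRB replicate 1 stood farthest from Con, with Pearson's r of log2 values of 0.869 to 0.885 against the Con libraries, where DRB replicates 2 and 3 had 0.899 to 0.915. Mitochondrial genes took 12.2% to 20.0% of all FPKM in Con and 23.9% to 26.4% in DRB, and each FPKM is relative to a total that holds them. With those genes left out the median of all tested genes moved from -0.09 to 0.02, and Hmgcs1 and Insig1 differed by 1.13 and 1.32 on the log2 scale (limma adjusted p 0.0877 for Hmgcs1 and 0.12 for Insig1). The labelled embryo was checked by its markers: 14 of 14 oocyte and cleavage genes were tested, and the most abundant by the mean of the 6 libraries were Obox6, with 1366 ± 452 FPKM in Con against 689 ± 267 FPKM in DRB, and Oosp1, with 38.8 ± 8.57 and 142 ± 80.8 FPKM (SD, n = 3). In Con alone Oosp1 came after Nr5a2 and Zp3. Summed, the 14 markers had 1149.7 to 2068 FPKM in Con and 790.2 to 1338 FPKM in DRB. Of these 14 markers 1 passed the test between the groups: Zfp352, which encodes a zinc finger protein, had 7.69, 3.59 and 2.03 FPKM in Con, against 41.07, 55.02 and 36.94 FPKM in DRB. All 3 DRB libraries were far above Con (log2 fold change 3.18 ± 0.43 SE, limma adjusted p 0.0045), and its part in the values of the 8 genes was not tested. Cumulus cells make much cholesterol, so their 14 markers were read beside the 8 genes: the summed level was 215 to 389.7 FPKM in Con and 149 to 277 FPKM in DRB, nearly all from Gja1 and Amhr2. Of the 14, Amh, Fshr, Inha, Cyp19a1, Has2 and Ptx3 were listed at 0 in all 6 libraries, while Gja1, Amhr2 and Kitl passed the filter. Gja1 had means of 286 ± 85.1 FPKM in Con against 190 ± 67.5 FPKM in DRB, and Amhr2 19.7 ± 3.18 against 23.6 ± 4.26 FPKM (SD, n = 3). The 11 markers besides Gja1, Amhr2 and Kitl, set apart after the values were seen, summed to at most 1.09 FPKM in any library. The part of cumulus cells in the results was not tested. The 8 sperm markers, led by Ldhc and Odf2, summed to 12.7 to 22.7 FPKM in Con and 12.3 to 24.2 FPKM in DRB, and the 8 blood markers, led by Hba-a1 and Hba-a2, to 78.1 to 124 and 63.4 to 103 FPKM; their part in the results was not tested.

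**Figure D3:**
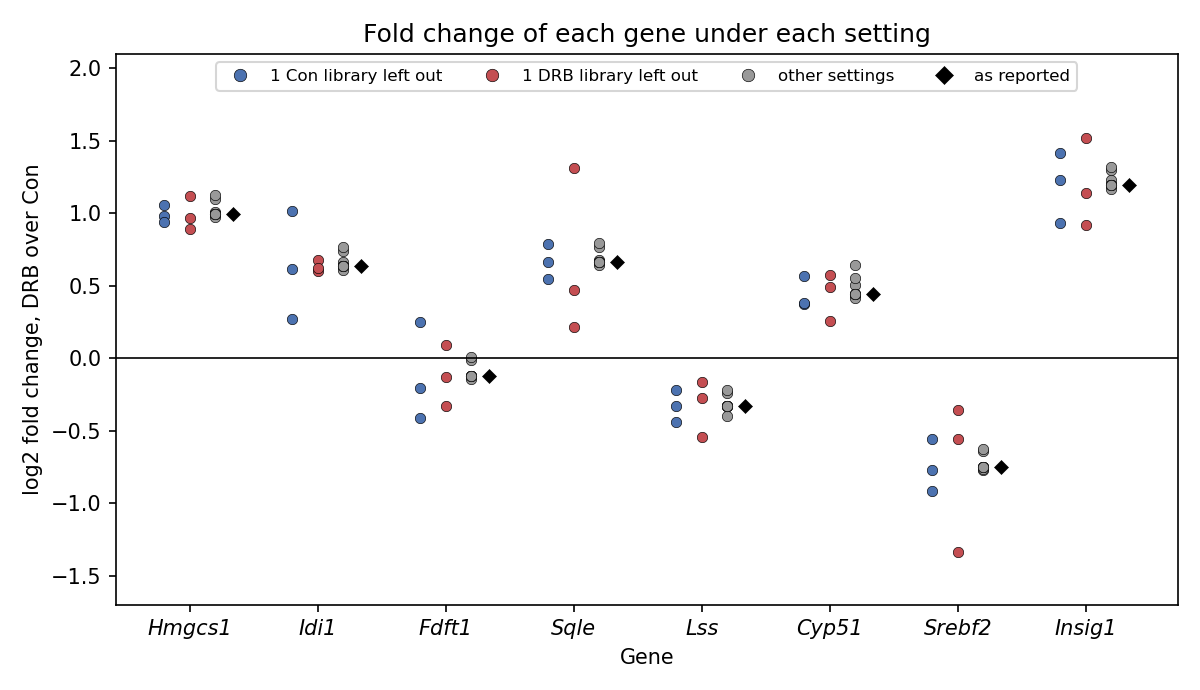
Log2 fold change, DRB over Con, of each gene as reported (black diamonds), with 1 Con library left out (blue), with 1 DRB library left out (red) and under the other settings (grey). Hmgcs1 stays between 0.89 and 1.13 and Insig1 between 0.92 and 1.52, whereas Sqle runs from 0.21 to 1.31, Srebf2 from -1.34 to -0.36, and Fdft1 crosses 0.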

How the data were processed

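RNA was measured by Smart-Seq2 with paired-end Illumina sequencing in 6 libraries, 3 Con and 3 DRB, grouped by their labels. The authors deposited 1 table of FPKM values per library, per the file headers. Reads were handled with cutadapt 1.16 and STAR on build mm10, per the submitters' processing notes, which name no quantifier or annotation. Loci are those of GENCODE M21 on GRCm38, the assembly behind mm10, in which 55154 of the 55335 IDs were found.

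The filter kept genes that reached 1 FPKM in at least 3 libraries. The test was that of limma 3.58.1 (R 4.3.3), applied to log2(FPKM + 1) (group as the single term, mean-variance trend, two-sided, Benjamini-Hochberg adjustment over 11893 genes, called below 0.05), a fit checked on simulated data. Count tests were not run because the values are not counts. Each library's depth is an estimate from single-transcript genes at low FPKM, by a search over the total number of fragments and the bases taken off each length (150 to 180 chosen) for the pair that put most values near whole numbers. At that optimum 72.9% to 81% lay within 0.15 of a whole number. This form was kept after simpler ones (the plain exon length, then fixed bases taken off) gave lower shares on the same files, so the share is a fitted maximum, the fragment totals are approximate, and no test uses them.

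The 8 genes and the wider lists were chosen with earlier results of these data known; some genes of the wider lists are not reported here and were left out of their counts. From each wider list the text names called genes, or else up to 3 with the smallest unadjusted p below 0.05, and the most abundant. Of marker lists it names the 2 most abundant. Zfp352, Kitl and the cumulus markers listed at 0 were named after their values were seen. The genes of like pattern have a mean of at least 5 FPKM and no bare model name. Scap, Mbtps1, Mylip, Npc1, Nr5a2, Zp3, Scd1, Srebf1, Insig2 and the genes under the filter were named for their role or their place in a count or order, after their values were seen. Promoters are RefSeq's. Alternatives were another pseudocount, filters, scalings, a threshold, a variance model, a replicate block and each library left out. Tables and figures used Python 3.11.15, pandas 2.3.3 and matplotlib 3.10.9.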

Additional observations from a re-analysis of the deposited data

How the results depend on the processing

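Neither the 8 genes nor the 78 genes of the wider lists held a call under any alternative run: 0 passed in each. The lowest limma adjusted p of Hmgcs1 was 0.0524, with median-of-ratios scaling, and the highest 0.255, without Con replicate 2; for Insig1 they were 0.0982 and 0.402. Of the 8 genes, 7 kept their sign in every setting in which they were tested, and Cyp51 was not tested at a minimum of 5 FPKM. The filters, the variance model and the replicate block leave each fold change as it was. Only the pseudocount, the scalings, leaving out mitochondrial genes and the fits without 1 library could turn a sign. Fdft1 changed sign, to 0.009 with mitochondrial genes left out, 0.25 without Con replicate 1 and 0.089 without DRB replicate 3, and ran from -0.41 to 0.25 over the fits without 1 library; the cause was not tested. Over all genes 295 were called, 182 higher and 113 lower. The count was 164 with a pseudocount of 0.1, 6 with no filter, 50 at adjusted p below 0.01 and 47 to 220 without 1 library, lowest without DRB replicate 1; the cause was not tested. Calls split into 223 higher and 84 lower with median-of-ratios scaling and 190 and 74 with mitochondrial genes left out. Leaving out genes under 200 bases of exon, chosen after seeing the data, gave 390. With the replicate block 171 were called and 0 of the 8 genes; libraries of the same number had deviations correlated at -0.051 to 0.053, and not every library correlated best with its own number, so the numbers were not taken as pairs. With 3 libraries per group the 95% intervals of Idi1 and Sqle hold both 0 and 1 on the log2 scale, so a doubling could not be told from no difference. The same holds for Cyp51, where a doubling of so low a gene is less than 1 on log2(FPKM + 1). The intervals of Srebf2 (-1.78 to 0.28) and Lss (-1.23 to 0.57) also hold 0 and reach well below it.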

Other observations

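Ratios between 2 genes of the same library do not depend on how the library was scaled, and the ones given here were chosen after the values were seen, so they carry no test. Insig1 over Srebf2 was 0.292, 0.366 and 0.353 in Con, in the order of replicates 1 to 3, against 1.12, 0.863 and 2.57 in DRB. Hmgcs1 over Srebf2 was 0.914, 0.705 and 0.613 in Con and 3.83, 1.13 and 3.73 in DRB. In both ratios every DRB library was above every Con library, although Srebf2 itself overlapped between the groups. Hmgcs1 and Insig1 alone were already apart in that direction. Hmgcs1 over Fdps, a later enzyme of the same pathway, was 0.529, 0.695 and 1.16 in Con and 2.78, 4.44 and 2.92 in DRB. This ratio had to be apart, since Hmgcs1 alone was higher and Fdps alone lower in every DRB library. Sqle over Msmo1 was 0.264, 0.425 and 0.487 in Con and 1.96, 1.47 and 1.06 in DRB. The groups of this ratio were apart while Sqle alone overlapped and Msmo1 alone was lower in every DRB library. How often ratios of other gene pairs were apart was not counted. Sqle over Fdft1, the enzyme just before it, overlapped, at 0.173, 0.39 and 0.625 in Con and 0.87, 0.801 and 0.321 in DRB.

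Insig2, the paralogue of Insig1 with the same retaining role, did not reach the filter and was not tested. It was at 0.87, 3.61 and 1.88 FPKM in Con and was listed at 0, 0.61 and 0 FPKM in DRB, so its DRB libraries were below its Con libraries while those of Insig1 were above. By genomic span, Idi1 (6951 bases) and Insig1 (7300 bases) were the shortest of the 8 genes and Srebf2 (58199 bases) the longest, with log2 fold changes of 0.63, 1.19 and -0.75. Between them came Sqle (16116 bases, 0.66), Hmgcs1 (17882 bases, 0.99), Cyp51 (23602 bases, 0.44), Lss (25551 bases, -0.33) and Fdft1 (34429 bases, -0.12). No relation with length was tested over these 8 genes or over all tested genes.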
